A study of Mus musculus with 2 samples.

Results

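H2-Ab1, Ciita and Ifi30 encode a chain, the transcriptional activator and a lysosomal reductase of the MHC class II antigen presentation pathway. They were taken by symbol from a table of RNA sequencing in stimulated mouse dendritic cells, and made up 3 of its 4898 gene rows. The cells were DC1940, a C57BL/6 line of the CD8α+ dendritic cell type, wild type in genotype and carrying an empty vector. They had been activated with pIC, an agonist of the receptor TLR3 made of synthetic RNA in double strands. The single group had 2 libraries of poly(A)-selected RNA. Unstimulated cells are named in the title of the table's sheet as the other arm of its comparison, but their values are not analysed here.

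The value of each row was FPKM, which counts sequenced fragments relative to the length of the transcript and to all fragments mapped, so that levels can be set beside each other between genes. The table gave 1 value per gene, the authors' own over the group, with no SD and no value per library. No difference between genes or between conditions could therefore be set against the spread between replicates, and every value below is a level after pIC. The duration of the stimulation and the depth of the libraries are unknown.

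MHC class II molecules are pairs of an alpha and a beta chain that show peptides from endosomes and lysosomes to CD4+ T cells. C57BL/6 mice make the I-A pair, of the chains encoded by H2-Aa and H2-Ab1. They lack a complete I-E pair because of a defect in the H2-Ea gene. CIITA is the master activator of class II genes: it does not bind DNA itself, but is held at their promoters by the RFX, CREB and NF-Y factors, which bind the conserved X and Y boxes. IFI30, also known as GILT, reduces disulfide bonds of proteins in lysosomes so that they can be cleaved into peptides. Dendritic cells that mature after a microbial signal are known to switch off transcription of Ciita and to keep class II molecules on the surface for longer.

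Of the other H2-A, H2-E, H2-O and H2-DM genes, H2-DMa, H2-DMb1, H2-DMb2, H2-Oa and H2-Ob had a row. The levels of H2-Aa, H2-Ea, H2-Eb1 and H2-Eb2 are not analysed here, nor is that of the invariant chain gene Cd74. A list of 11 class II chains, peptide editors and the invariant chain thus had 6 genes with a row. Of all RefSeq protein-coding genes, 22.2% had one. With a row meaning a place in a table that its submitters named for differential expression, neither the direction nor the size of a difference was available for any of the 6.

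The stretches before the annotated starts of class II genes are shown because the X and Y boxes in them are where CIITA acts, and that of Ifi30 because no such pair of boxes was found in it. The RefSeq promoter table (GRCm38.p6) had an entry for 9 of 12 class II pathway genes looked up, namely H2-Aa, H2-Eb1, H2-Eb2, H2-DMa, H2-DMb1, H2-DMb2, H2-Oa, H2-Ob and Ifi30. The searched names without one were H2-Ab1, H2-Ea and Ciita. Each printed sequence is the 250 bases before the start, read 5′ to 3′ on the strand of the gene. Capitals mark matches to the X box core (AGNAAC, then any pair of bases, then ATG), the Y box core (TGATTGG) and the E box (CACGTG), the last a palindrome bound by factors such as USF1 and TFEB.
H2-DMb1 (beta chain of the peptide editor DM, chr17:34152941-34153190, + strand): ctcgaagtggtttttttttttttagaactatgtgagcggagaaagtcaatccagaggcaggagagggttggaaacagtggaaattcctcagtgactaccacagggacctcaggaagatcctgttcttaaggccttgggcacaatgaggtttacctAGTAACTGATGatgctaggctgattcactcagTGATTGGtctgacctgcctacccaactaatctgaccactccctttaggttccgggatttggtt
H2-DMb2 (duplicate DM beta chain, chr17:34144999-34145248, + strand): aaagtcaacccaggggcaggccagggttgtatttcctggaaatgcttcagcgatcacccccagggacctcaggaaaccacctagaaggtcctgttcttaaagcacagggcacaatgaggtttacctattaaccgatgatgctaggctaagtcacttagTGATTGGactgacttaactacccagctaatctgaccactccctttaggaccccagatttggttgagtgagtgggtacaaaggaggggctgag
H2-Ob (beta chain of the DM inhibitor DO, chr17:34238655-34238904, + strand): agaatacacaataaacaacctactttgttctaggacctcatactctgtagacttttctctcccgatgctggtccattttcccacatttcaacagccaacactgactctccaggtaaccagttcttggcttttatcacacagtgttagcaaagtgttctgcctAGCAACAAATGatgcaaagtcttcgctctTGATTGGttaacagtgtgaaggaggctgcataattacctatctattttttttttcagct
H2-Oa (alpha chain of DO, chr17:34092129-34092378, + strand): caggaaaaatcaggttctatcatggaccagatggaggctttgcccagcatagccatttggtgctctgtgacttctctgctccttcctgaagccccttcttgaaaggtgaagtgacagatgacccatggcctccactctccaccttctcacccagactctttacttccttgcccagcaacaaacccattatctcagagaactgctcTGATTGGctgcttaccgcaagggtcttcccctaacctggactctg
Ifi30 (lysosomal thiol reductase, chr8:70766664-70766913, - strand): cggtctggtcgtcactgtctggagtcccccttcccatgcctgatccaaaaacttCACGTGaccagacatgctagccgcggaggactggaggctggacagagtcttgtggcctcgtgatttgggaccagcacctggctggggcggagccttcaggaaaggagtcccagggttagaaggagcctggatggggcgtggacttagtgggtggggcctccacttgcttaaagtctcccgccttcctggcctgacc

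The Y box core was found before the start of 7 of the 8 class II genes with an entry, and in 7.23% of all 32851 promoter entries searched on both strands over the same length. H2-DMa, with 2 entries, was the exception. The X box core was found in 4 of the 8 (H2-DMb1, H2-Ob, H2-Eb1 and H2-Eb2) and in 0.715% of all entries. In those 4 genes the X box core came first and the Y box core followed on the same strand after 18 to 21 bases. No entry of another gene had this order within 60 bases, since only 4 entries did (0.0122%). The letters follow the textbook boxes but were chosen with these promoters in view, so the counts describe the class II promoters and test nothing. Before Ifi30 there was an E box with its first base at -196, a motif in 6.02% of all entries, and neither X nor Y box core. The motifs were searched on both strands and their matches did not overlap in the printed sequences. The starts used are those of RefSeq, and GENCODE M21 places some of them further upstream. Its starts of H2-DMb1 (34153072), H2-DMb2 (34145236), H2-Oa (34092340) and H2-Ob (34238903) lie inside the printed stretches. By that annotation both H2-DMb1 matches come after the start, and the H2-Oa match reaches it. A match is a run of letters and not a shown binding site, and letters not found in the 250 bases say nothing of the factor.

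**Figure D1:**
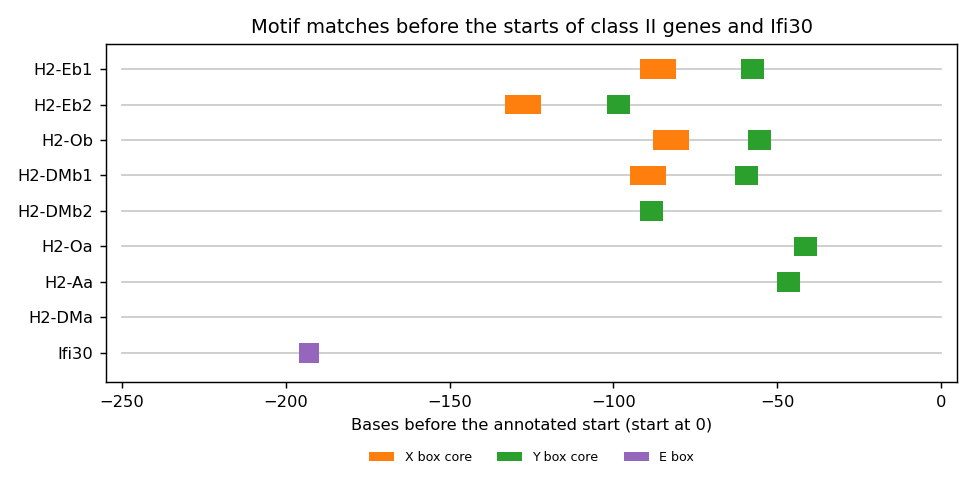
Matches to 3 motifs in the 250 bases before the annotated start, for 8 class II genes and Ifi30; the x axis counts bases before the start, and each coloured block is 1 match. H2-Eb1, H2-Eb2, H2-Ob and H2-DMb1 carry an X box core followed by a Y box core, H2-DMb2, H2-Oa and H2-Aa a Y box core without the X box core, and Ifi30 an E box. H2-DMa is drawn from the first of its 2 entries, and neither held a match.

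H2-Ab1, which encodes the beta chain of I-A, had 1348 FPKM. It was the 19th highest of the 4898 rows, with 99.6% of rows lower, and took 0.480% of the FPKM summed over the table. Its row (mm10, chromosome 17, 34263227 to 34269418) carried a single RefSeq transcript of 6 exons, and no other gene of GENCODE M21 overlapped the interval. Class II genes resemble one another, so the sequence that H2-Ab1 shares with other genes was measured. Of the 1163 distinct words of 50 bases in its transcript, 0 occurred in a transcript of another gene. With words of 30 bases, 0.676% did, all of them in H2-Eb1. By this measure of exact matches, the H2-Ab1 value draws on sequence that is nearly all its own. The rows next to it in level were Nfkbia at 1401 FPKM, which encodes an inhibitor of NF-kB, and Basp1 at 1188.

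DM, a class II-like molecule that stays in endosomes and helps class II molecules exchange peptides, is built of the chains from H2-DMa and H2-DMb1 or H2-DMb2. H2-DMb1 had 55.8 FPKM and H2-DMa 45.6, a ratio of 1.22 between the chains of the pair. Both were above the median of all rows, 9.68 FPKM. The level of H2-Ab1 was 24.1 times that of H2-DMb1 and 29.5 times that of H2-DMa. H2-DMb2, the duplicate beta chain gene, had 5.53 FPKM, with H2-DMb1 10.1 times higher. These values for the DM beta chains are uncertain. Of the 50-base words of H2-DMb2, 26.8% also occur in H2-DMb1, and of those of H2-DMb1, 27.2% occur in H2-DMb2. Counting all other genes, H2-DMb2 shares 32.8% of its words. How the reads they share were divided was not tested.

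DO, which binds DM and holds back its activity, is encoded by H2-Oa and H2-Ob. H2-Ob had 2.64 FPKM and H2-Oa 2.19, both below the median of all rows and close to each other, with a ratio of 1.21. The DM alpha chain gene was 20.9 times as high as the DO alpha chain gene, and H2-DMb1 was 21.2 times as high as H2-Ob. Each DM chain gene thus stood about as far above its DO counterpart as the other did, leaving out H2-DMb2. The H2-Oa row (chromosome 17, 34083843 to 34095309) spans the same bases as the antisense gene BC051537 of GENCODE M21. The annotated H2-Oa transcript that matches its accession begins at 34092340, well inside that interval. Of the 50-base words of H2-Oa, 21.7% occur in BC051537 read on the opposite strand. The sources used here do not say whether reads were counted by strand, so the value of H2-Oa is uncertain. H2-Ob shared 0 of its 2621 words with another gene.

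**Figure D2:**
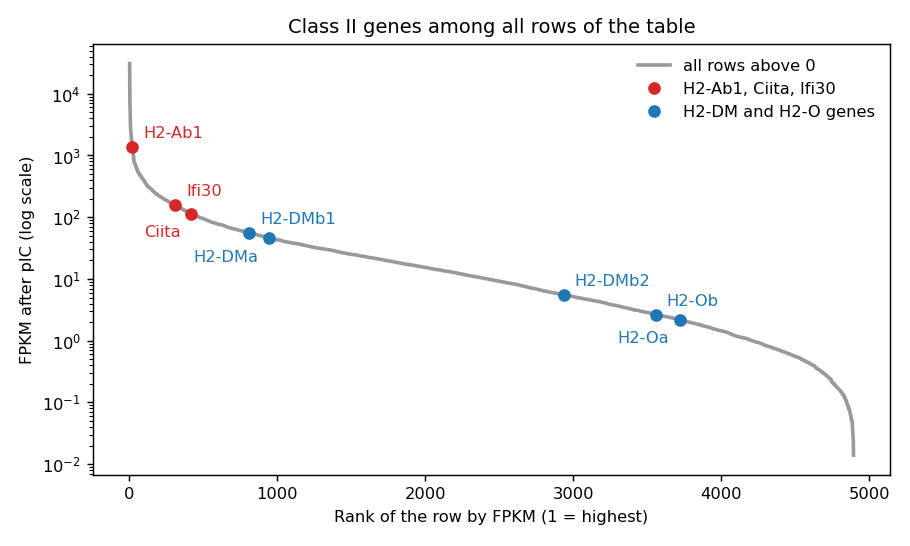
FPKM on a log axis against rank for all rows above 0, with the class II genes marked. H2-Ab1 (rank 19), Ifi30 (rank 308) and Ciita (rank 417) lie on the steep left part of the curve, H2-DMb1 and H2-DMa at 55.8 and 45.6 FPKM, and H2-DMb2, H2-Ob and H2-Oa below the median of 9.68.

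The class II genes lie together in the MHC of chromosome 17, beside genes of class I presentation. Between the starts of H2-Oa and H2-Ab1 the table had 10 rows, 6 of class II genes and 4 of others. Of those others, Psmb9, which encodes an immunoproteasome subunit, had 642 FPKM. Tap1 and Tap2, which encode the transporter that carries peptides to class I molecules, had 279.7 and 199 FPKM. Brd2, which encodes a bromodomain protein that binds acetylated histones, had 157 FPKM. Class II genes at 2.19 and 2.64 FPKM and genes of class I peptide supply at 199 FPKM or more were thus interleaved in the 185.6 kb from the start of H2-Oa to the end of H2-Ab1.

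Within 1 Mb of H2-Ab1 on either side there were 42 rows, and H2-Ab1 was the highest of them. Their median was 18.1 FPKM, and 13 of the 42 stood at 100 FPKM or more, against 470 of 4898 (9.60%) in the table. Of 111 RefSeq protein-coding genes starting in this window, 39 had a row (35.1%, beside the 22.2% of all such genes given above). The classical class I heavy chain genes H2-D1 and H2-K1 had 1105 and 755 FPKM, so that H2-Ab1 was 1.22 and 1.79 times as high. The value of the class II beta chain gene was thus near those of the class I heavy chain genes. Sequence shared with other genes was not measured for H2-D1 and H2-K1, so how far their values are their own is unknown. Tapbp, which encodes the class I loading factor tapasin, had 638 FPKM.

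**Figure D3:**
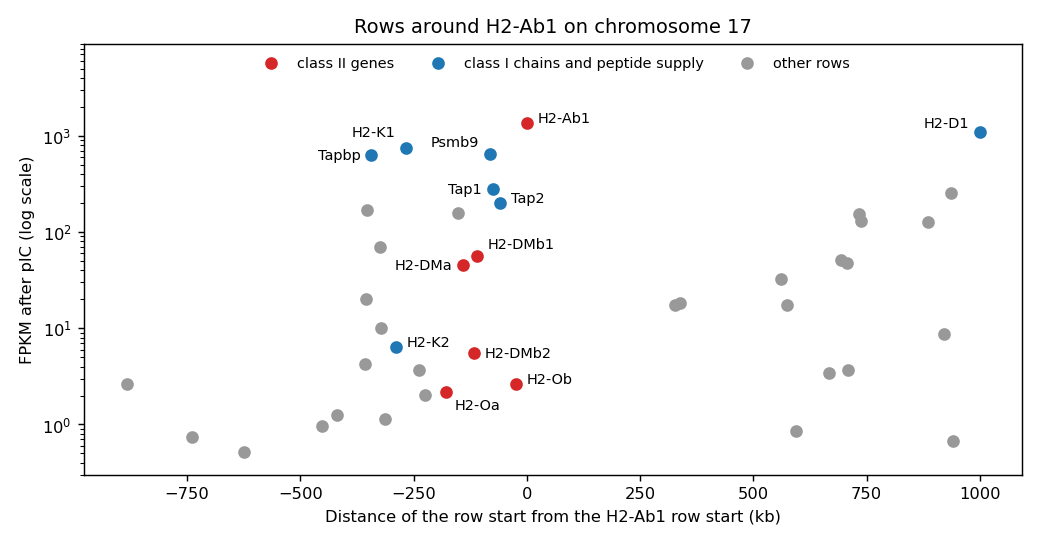
FPKM on a log axis for the 42 rows that start within 1 Mb of the H2-Ab1 row, against the distance of each start in kb. H2-Ab1 at 1348 is the highest, the H2-DM and H2-O genes lie between 2.19 and 55.8 on its left, and the class I peptide supply genes Psmb9, Tap1 and Tap2 lie among them at 199 to 642.

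Ciita had 113 FPKM, rank 417, with 91.5% of rows lower. H2-Ab1, a gene that CIITA activates, was 11.9 times as high. The row (mm10, chromosome 16, 10480072 to 10527640) carried 5 RefSeq transcripts. Mouse Ciita is known to be transcribed from separate promoters with their own first exons: the most upstream is the one used by conventional dendritic cells, another is used by B cells, and the most downstream answers to interferon gamma. By the GENCODE M21 transcripts paired with them, the 5 RefSeq transcripts start in 3 places. There were 3 that start between 10480059 and 10480164, 1 at 10488279, which is 8.22 kb further on, and 1 at 10489781, another 1.5 kb on. The RefSeq transcripts placed at 10480059 share a single GENCODE transcript, so the counts are of RefSeq transcripts. The single value of the row is for all of these together, so that it does not tell which starts were in use. The gene Dexi, on the opposite strand, overlaps 25110 bases of the interval, but 0.239% of the 50-base words of the Ciita transcripts occur in Dexi transcripts and none in those of other genes. With words of 30 bases, 1.60% occur in another gene, 0.839% in Dexi. The rows next to Ciita in level were the cell cycle kinase gene Cdk1 at 113.6 FPKM and Ifrd1 at 113.1.

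Of 18 genes for CIITA, the factors of the class II promoter complex and regulators of Ciita, 13 had a row. That is 72.2%, beside 22.2% of all RefSeq protein-coding genes. The median of the 13 was 44.4 FPKM (37.1 for the 12 besides Ciita). The 6 genes for DNA-binding partners of CIITA with a row were lower than Ciita itself. The RFX subunit genes Rfx5 and Rfxap had 12.5 and 3.75 FPKM, so that Ciita was 9.07 and 30.2 times as high. Of the NF-Y subunits, which bind the Y box as a trimer, Nfya had 61.4 FPKM, Nfyc 29.8 and Nfyb 12.7. Creb1, which encodes a factor that binds next to RFX in the X box region, had 17.3 FPKM. All 6 of these partner genes thus lay between 3.75 and 61.4 FPKM, and Rfxap alone of them was under the table's median.

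The regulators that act on the Ciita gene covered a wider range. Spi1, which encodes PU.1, a factor of myeloid cells and a known activator of the dendritic cell promoter of Ciita, had 534 FPKM, 4.71 times the level of Ciita. Irf1, which encodes a factor that carries the interferon gamma signal to the downstream promoter, had 241 FPKM, 2.12 times the level of Ciita. Irf2, which encodes a factor that binds the same element as IRF1, had 156 FPKM. The genes Spi1, Irf1 and Irf2 were thus all above Ciita. Ifngr1, a chain of the interferon gamma receptor, had 87.0 FPKM. The genes known to hold Ciita down were lower: Socs1, an inhibitor of JAK signalling, had 44.4 FPKM, and Prdm1, which encodes the repressor Blimp-1, had 2.49. Rfxank, Usf1, Irf4, Irf8 and Ifngr2 are not analysed here.

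Ifi30 had 157 FPKM, rank 308, with 93.7% of rows lower, and stood 1.39 times as high as Ciita. H2-Ab1 was 8.59 times as high as Ifi30. Its row (mm10, chromosome 8, 70762773 to 70766663) carried 1 RefSeq transcript. The interval overlaps the annotated gene 6330537M06Rik, on the opposite strand, by 85 bases at the start of Ifi30. Of the 980 distinct words of 50 bases in the GENCODE transcripts of Ifi30, 3.67% occur in transcripts of that gene and none in those of any other. With words of 30 bases the share was 5.71%, all in the same gene. GENCODE M21 types the Ifi30 transcripts used for these shares as processed transcripts and not as protein-coding ones. The rows next to it in level were Oas3 at 157.5 FPKM, an antiviral oligoadenylate synthetase gene, and Brd2 at 156.8.

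Ifi30 was the second highest of the endolysosomal processing genes with a row. Of 19 genes in that list, 11 had one (57.9%, beside 22.2% of all RefSeq protein-coding genes). Their median was 24.2 FPKM, with a range from 0.286 to 259. Ctsz, which encodes the carboxypeptidase cathepsin Z, was the highest at 259 FPKM, 1.65 times Ifi30. Cathepsin H, an aminopeptidase, had 24.2 FPKM for its gene Ctsh, and the serine carboxypeptidase gene Ctsa had 10.9. Ctsd and Ctsl, which encode the endopeptidases cathepsin D and cathepsin L, had 0.710 and 0.286 FPKM. Of the cathepsin genes with a row, Ctsz, Ctsh and Ctsa were thus above the table's median of 9.68 FPKM, and Ctsd and Ctsl were below 1 FPKM. Cstb, which encodes the cathepsin inhibitor cystatin B, had 102 FPKM, whereas the inhibitor gene Cst7 had 0.944. Sppl2a, which encodes the protease that clears the last fragment of the invariant chain from the membrane, had 101 FPKM. The lysosome membrane gene Lamp2 had 74.3 FPKM. Tfeb, which encodes an activator of lysosomal genes, had 2.38. Ctss, Ctsb, Ctsc, Ctse, Ctsk, Lgmn, Cst3 and Lamp1 are not analysed here.

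Of 16 genes for the traffic and turnover of class II molecules, 7 had a row, with a median of 15.4 FPKM. That is 43.75%, beside 22.2% of all RefSeq protein-coding genes. The membrane ubiquitin ligase MARCH1 tags class II molecules for removal from the surface, and CD83 opposes it. Cd83 had 294 FPKM and March1, now named Marchf1, 15.4, a ratio of 19.0. The tetraspanins, which organise class II molecules in membranes, ranged widely. Cd82 had 366 FPKM and Cd9 67.0, whereas Cd63 had 3.66 and Cd37 0.201. Pikfyve, which encodes a lipid kinase of endosomes, had 3.74 FPKM. The other 9 genes of the list are not analysed here.

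**Figure D4:**
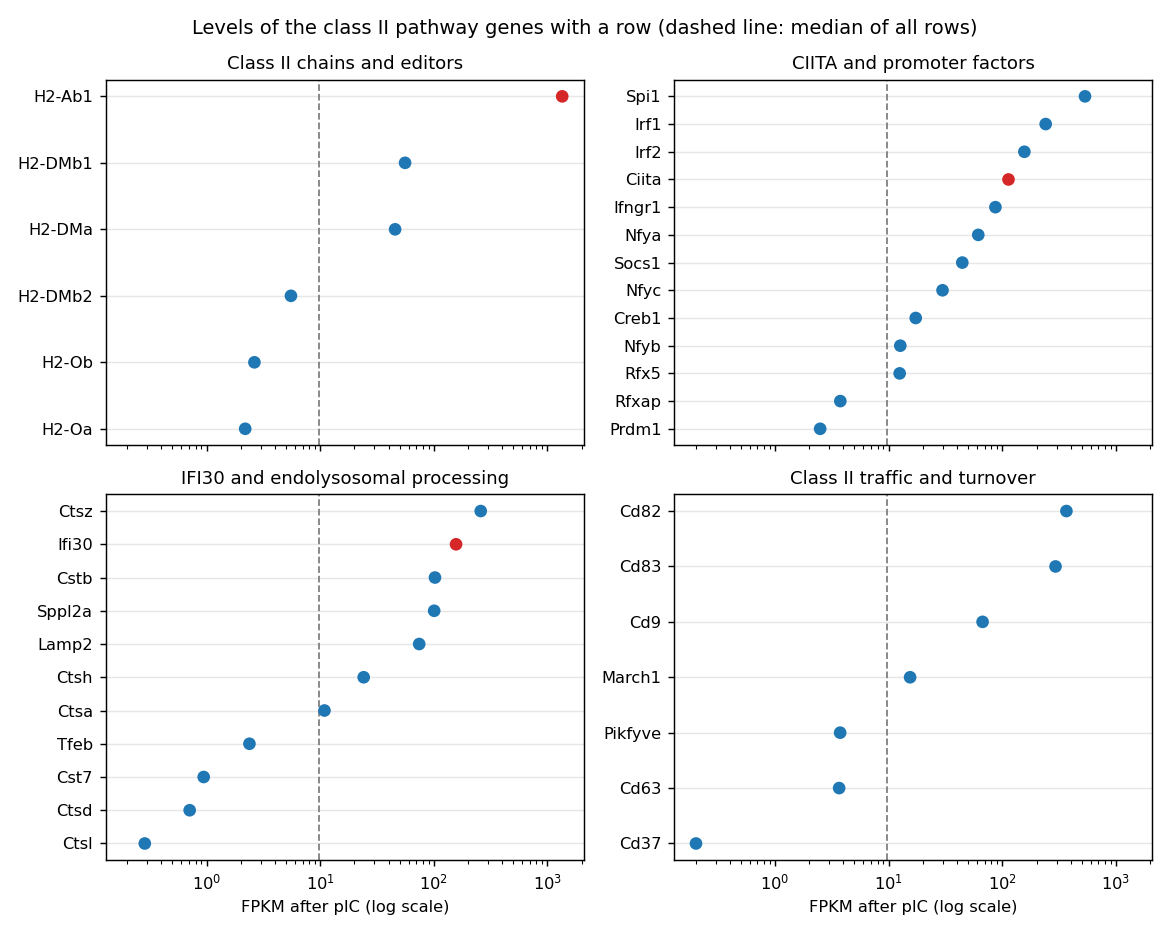
FPKM on a log axis for the genes with a row in 4 lists of the class II pathway, with H2-Ab1, Ciita and Ifi30 in red, the other genes in blue and the median of all rows, 9.68 FPKM, as a dashed line. H2-Ab1 stands 24.1 times above the next gene of its list, Ciita is the fourth of 13 and Ifi30 is the second of 11.

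The labelled cell type was set beside markers of cells that carry class II molecules. Of 13 markers of CD8α+ conventional dendritic cells, 10 had a row (76.9%, beside 22.2% of all RefSeq protein-coding genes). Their median was 58.8 FPKM and their lowest value 5.62. A row marks a place in a table named for differential expression, so these counts do not measure how many markers were expressed. Xcr1, a chemokine receptor gene of this cell type, had 387 FPKM. Cd8a had 292 FPKM, and Wdfy4, which encodes a protein needed for cross-presentation, 60.5. Of 17 markers of other cells with class II molecules, 7 had a row (41.2%), and their summed level was 15.1 FPKM. A marker without a row has an unknown level, so this sum and those below are partial. They do not show that other cells were absent. For macrophages and monocytes there were 5 of 6, summing to 9.50 FPKM, with Lyz2 at 5.40 and Csf1r at 0.686. For plasmacytoid dendritic cells there was 1 of 3, Tcf4 at 5.41 FPKM, and for the other conventional type 1 of 4, Itgam at 0.176. The 4 B cell markers of the list, Cd79a, Cd79b, Ms4a1 and Pax5, are not analysed here. The lowest markers of the labelled type, Cadm1 at 9.81 FPKM and Flt3 at 5.62, were near the highest of the other types, and the defining genes Batf3, Irf8 and Itgae are not analysed here. The other 8 markers of the labelled type with a row stood at 24.3 FPKM or more.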

How the data were processed

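Poly(A)-selected RNA of 2 libraries of pIC-activated DC1940 cells was sequenced. Per the submitters' processing notes, the tools were Cufflinks 2.2.1, TopHat2 2.1.0 and FastQC 0.11.5, and the build was mm10. Per the file headers, the authors deposited 1 FPKM value per gene. The sources used here do not say how they made 1 value from 2 libraries. There were 0 columns of other samples, and 1 line of the table was not used.

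The members and gene lists were chosen with earlier results of these data known, and no test was made, since there is 1 value per gene. The genes named are the members, the genes of the lists, the rows next to each member in FPKM and rows that start within 1 Mb of H2-Ab1. Some genes first placed in the lists are not reported here and were taken out of them; genes without a row stay in the lists' sizes. Symbols were matched with older symbols; for the 5 symbols on 2 rows, the higher value was used. Row starts count from 0 in the file and were raised by 1. Shares of RefSeq protein-coding genes with a row were counted by accession (GRCm38.p6, 4864 of 21900 genes). Shared sequence was measured as exact words of 50 bases between GENCODE M21 transcripts, in either direction, with 30 bases as an alternative chosen after seeing the data. The accession of Ifi30 was paired with no transcript of that annotation, so both transcripts named Ifi30 were used. Read length and mismatches were not modelled. The motif, word and percentile functions were tested on simulated data. Depth is unknown, so no interval is given. The computations ran in SciPy 1.17.1, numpy 2.4.6 and pandas 2.3.3 under Python 3.11.15, with plots by matplotlib 3.10.9.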

Additional observations from a re-analysis of the deposited data

How the results depend on the processing

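No paired analysis was possible because the table has 1 pooled value per gene, and leaving out a library was not possible for the same reason. Floors on FPKM remove low rows and move ranks and medians by construction. With a floor of 1 FPKM, the percentage of rows lower was 90.1 for Ciita and 92.7 for Ifi30. With a floor of 5 FPKM it was 99.4 for H2-Ab1, 86.2 for Ciita and 89.8 for Ifi30. With a floor of 1 FPKM, the medians were 87.5 FPKM for endolysosomal processing, 41.2 for traffic and turnover and 5.40 for markers of other cells, of which 3 genes stayed. With a floor of 5 FPKM, the medians were 50.7 FPKM for the class II chains, 61.4 for CIITA and promoter factors, 100.7 for endolysosomal processing (7 genes), 180.5 for traffic and turnover (4 genes) and 5.41 for markers of other cells (2 genes). The other 31 alternatives chosen at the outset were for counts, percentages of rows lower and medians. Those for medians left the median unchanged. Those for counts stayed within 1.5 times, a limit set for counts. Class II chains with a row went from 6 to 4 at the floor of 5 FPKM, and endolysosomal genes from 11 to 8 at the floor of 1. With words of 30 in place of 50 bases, the share found in any other gene went from 0.239% to 1.60% for Ciita, 3.67% to 5.71% for Ifi30, 27.2% to 38.3% for H2-DMb1, 32.8% to 46.5% for H2-DMb2 and 21.7% to 25.02% for H2-Oa. The unknown depth and the pooled values limit what the levels can show.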

Other observations

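The order of the table's rows separates the class II genes. The first 2406 of the 4898 rows stand in rising order of the authors' locus number, and the rest fall into 361 further runs. H2-Oa, H2-DMa, H2-DMb2 and H2-DMb1 stand at rows 933 to 936 and H2-Ob at row 938, all in the first run. Ifi30 is at row 2823, in run 6, H2-Ab1 at row 3515, in run 41, and Ciita at row 3632, in run 53 of 362. H2-Ab1 thus stands apart from H2-Ob, the nearest class II gene on the chromosome with a row, whose start is 24.3 kb away. The sources used here do not say what the rows were sorted by, and this was not tested, so the order is no evidence on any gene's response.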
